A study of Mus musculus with 18 samples.

Results

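The lungs of 2 mouse lines kept in normoxia were compared directly, the libraries titled B2N against those titled B1N, without the wild type groups. The 6 libraries, 3 of each title, belong to a series of 18, and all genes of the deposited fragment table were considered. B1N is lung of β-arrestin 1 -/- mice and B2N is lung labelled β-arrestin 2 -/-, both with the strain label C57BL/6. All were male, entered at 8 to 12 weeks of age, spent 4 weeks at normal altitude (PAO2 about 150 mmHg) and carry an age label of 12 to 16 weeks. About 30 mg of frozen tissue gave the RNA, which was enriched for poly(A) before sequencing. The same lines after 4 weeks at the pressure of 18000 feet (titled B1H and B2H, PAO2 about 70 mmHg, 3 libraries each) and wild type normoxia (WTN, 3 libraries) serve for reference values. These and the other libraries of the 18 also enter the estimate of spread behind each adjusted p. The labels do not tie libraries to separate animals, so p-values measure the spread between libraries, which may be technical.

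β-Arrestins are adaptor proteins that bind G protein-coupled receptors once receptor kinases have phosphorylated them. They end the coupling to G proteins, bring receptors to clathrin-coated pits and serve as scaffolds for kinases. Lung expresses both forms, in vascular, airway and immune cells.

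The targeted genes were read first. Arrb1 (chromosome 7, 99535486 to 99606771, mm10), the gene of β-arrestin 1, stood at 87.9, 118 and 108 CPM (fragments scaled to library size) in the B1N libraries and at 257, 285 and 317 in the B2N libraries. The groups did not overlap: the means were 104 ± 15.1 and 286 ± 29.9 (SD, n = 3), and the log2 difference, B2N minus B1N, was 1.45 ± 0.12 (SE, edgeR adjusted p = 4.12e-06). Wild type normoxia was higher than both lines, at 475 ± 7.35. Arrb2 (chromosome 11, 70432580 to 70440828), the gene of β-arrestin 2, stood at 31.2, 35.9 and 33.2 CPM in B1N and at 45.6, 38.6 and 36.3 in B2N. The B2N values were thus not the lower ones, the difference of 0.26 ± 0.19 did not pass the test (adjusted p = 0.439), and wild type was at 32.5 ± 2.48. The level of Arrb2 goes against the label of the B2N libraries, which are therefore called labelled throughout. A total per gene does not show which exons its fragments came from, so a transcript that lacks a deleted stretch would be counted too.

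**Figure D1:**
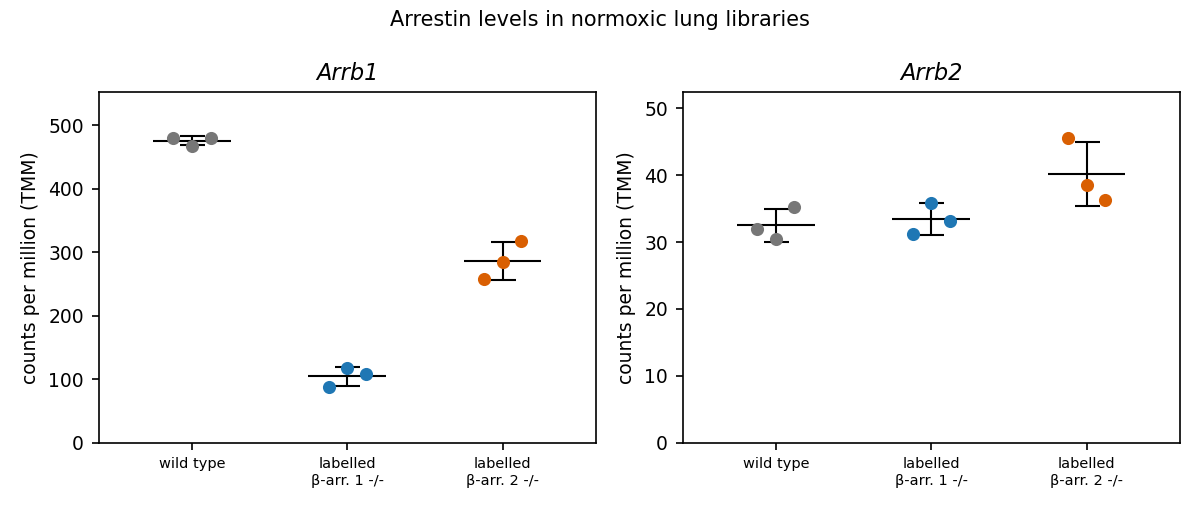
CPM of Arrb1 and Arrb2 in each normoxic library (points), with the mean (long bar) and SD (short bars) of 3 libraries per group. Arrb1 separates the 3 groups, at means of 475, 104 and 286, while Arrb2 is no lower in the B2N-labelled libraries than elsewhere.

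Of 12 genes of the arrestin and receptor kinase list, Arrb1 alone passed by edgeR (against 1.72% of all genes), and the list median was 0.00 on the log2 scale. The list held 5 genes at an unadjusted p below 0.05 and 2 called by DESeq2. A fit of the 6 libraries alone called 2 of its genes higher and 1 lower. The kinases that phosphorylate receptors for arrestin binding mostly had like levels in both lines. Adrbk1 (GRK2) had a difference of 0.01 ± 0.08, Adrbk2 (GRK3) of -0.01 ± 0.11 and Grk6 of -0.01 ± 0.12. Grk5 stood at 104 CPM in B1N and 75.5 in B2N (-0.46 ± 0.11, adjusted p = 0.0519). Of 41 receptors for vasoactive agents and 34 of their ligands and enzymes, 0 passed by edgeR. At an unadjusted p below 0.05 there were 13 and 9, DESeq2 called 2 and 1, and a fit of the 6 libraries alone 4 and 3. Over all genes these settings gave 3116 of 15384, 912 of 15378 and 1228 of 15384 (7.98%).

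Across the lung, 265 of 15384 genes tested differed between the lines (1.72%), 95 higher (0.618%) and 170 lower (1.11%) in the B2N-labelled libraries. At an unadjusted p below 0.05 there were 3116. The higher genes had a median log2 difference of 1.19 and the lower ones of -0.65, and 56 were at least 2-fold higher against 32 at least 2-fold lower. The values of the 265 genes did not overlap between the groups, as was so for 37.9% of all genes tested. The count depends on the libraries: it ran from 63 (without B2N replicate 1) to 250 (without B2N replicate 2) when 1 of the 6 was left out, with 128, 87 and 76 without B1N replicates 0, 1 and 2 and 94 without B2N replicate 0, and 55 genes passed in all 6 of these fits. A fit of the 6 libraries alone called 1228 genes (7.98%), which hold 252 of the 265.

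Library totals ran from 18250814 fragments (B2N replicate 0) to 24599359 (B2N replicate 2), with 17099 to 17294 genes detected. B2N replicate 0 stood apart from its fellows: its counts differed from theirs by a chi-square per degree of freedom of 37.8 and 61.6, against 9.98 to 17.4 for the other pairs within a group. Its mean over cardiac muscle genes was 2.08 log2 units above the average of the 6 libraries, and that over smooth muscle genes 0.64 above. The lung label was borne out by its markers in both lines: the surfactant gene Sftpb had means of 2910 and 2970 CPM, the alveolar type 1 gene Ager 3180 and 3500, and the cilia regulator Foxj1 198 and 247.

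Among the genes with the largest differences were several of the major histocompatibility complex on chromosome 17. These H2 genes encode the proteins that present peptides to T cells, in classical and nonclassical class I forms and in class II pairs. H2-Ea-ps (34342212 to 34344645), the class II Eα chain, which is known as silent in mice of the C57BL/6 haplotype and carries the name of a pseudogene for that reason, had 1, 0 and 1 fragments in the B1N libraries. The B2N-labelled libraries held 2196, 6081 and 3644, or 113, 263 and 146 CPM. Summed over the groups this is a ratio of 6230 with a 95% counting interval of 1720 to 51400, which covers counting error only. Wild type normoxia was at 0.108 ± 0.0272 CPM, near B1N. The level of H2-Ea-ps in the B2N-labelled libraries thus goes against the silence known for the strain on their label. The cause was not tested.

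The nonclassical class I gene H2-Q10, whose product is known as a secreted molecule of liver, stood at 1.03, 2.26 and 0.945 CPM in B1N and at 31.7, 98.1 and 52.6 in B2N (5.43 ± 0.65, adjusted p = 0.000263). H2-Q2 stood at 3.67, 4.01 and 2.79 against 22.7, 56.4 and 31.9 CPM (3.4 ± 0.32, adjusted p = 1.81e-05). H2-K2 stood at 6.23, 8.25 and 5.49 against 35.4, 81.4 and 42.1 CPM (2.99 ± 0.27, adjusted p = 1.06e-05). In each of these genes the lowest B2N-labelled library was above the highest B1N library, and B2N replicate 1 was the highest of its group. Of 32 H2 genes tested, 7 were higher and 0 lower (against 0.618% and 1.11% over all genes). The others were H2-M2 (3.37 ± 0.44), H2-Q1 (2.10 ± 0.30) and H2-T24 (1.10 ± 0.26). The calls of the 6 other than H2-T24 held whichever library was left out.

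The abundant class I and class II genes, singled out after their values were seen, did not pass. H2-K1 was at 1320 CPM in B1N and 852 in B2N (-0.63 ± 0.20, adjusted p = 0.111) and H2-D1 at 1620 and 1480 (-0.14 ± 0.15, adjusted p = 0.616). H2-Aa, H2-Ab1 and H2-Eb1 had log2 differences of -0.26, -0.34 and -0.22, with adjusted p from 0.337 to 0.531. The class I list, which adds the peptide transporters Tap1 and Tap2, tapasin and the immunoproteasome, had 5 of 23 higher (against 0.618% over all genes), all of them H2 genes, 0 lower and a median of -0.10. H2 genes have near-identical copies, and H2-T23 and H2-T24 share 1 locus in the deposited table. How fragments were split among copies is uncertain, so the level of any single H2 gene is too.

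The differences were dense around this complex. Of 765 genes tested on chromosome 17, 44 differed (5.75%), 21 higher and 23 lower, against 1.72% over all genes. By 10-Mb stretch they were 4 of 47 between 10 and 20 Mb (8.51%), 18 of 200 between 20 and 30 Mb (9.0%) and 16 of 203 between 30 and 40 Mb (7.88%). Between 0 and 10 Mb it was 0 of 36, and between 40 and 50 Mb 3 of 93 (3.23%). The next chromosome by share was 18, with 13 of 415 (3.13%). The count on chromosome 17 was 22 to 41 when 1 library was left out, lowest without B2N replicate 1, and 101 in the fit of 6 libraries.

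**Figure D2:**
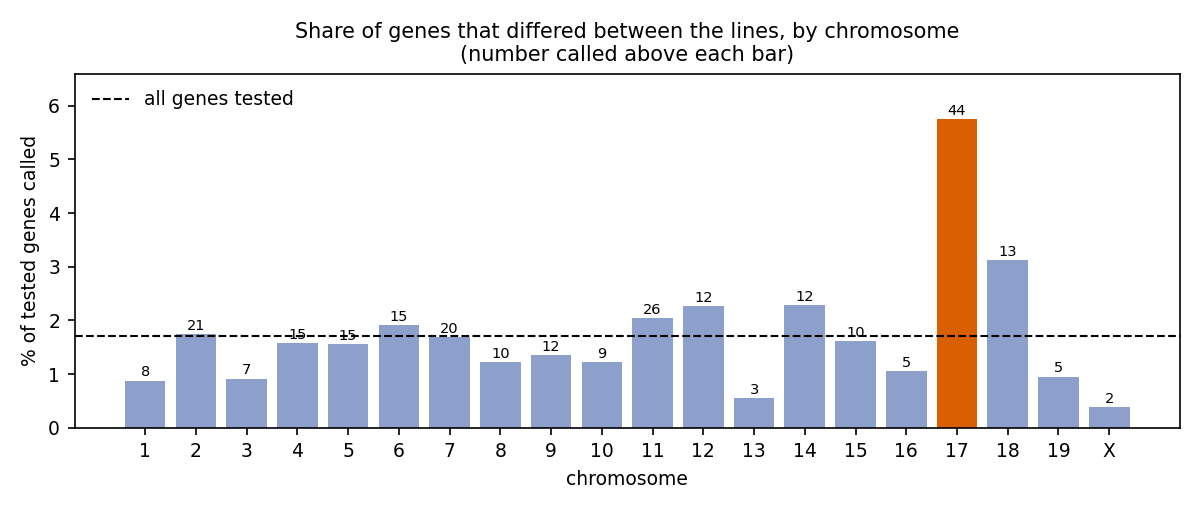
Percent of the genes tested on each chromosome that differed between the lines at an edgeR adjusted p below 0.05, with the number of such genes above each bar and the share over all genes as a dashed line. Chromosome 17, with 44 genes, stands at 5.75%, above the others.

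Genes of chromosome 17 outside the H2 family were among both extremes. Atp6v0c, a subunit of the proton pump of acidic organelles, stood at 24.9, 23.9 and 23.8 CPM in B1N and at 2.98, 3.85 and 4.08 in B2N (-2.73 ± 0.14, adjusted p = 8.31e-09). Wild type was near B1N, at 25.3. Its locus overlaps a retrocopy in the table, Atp6v0c-ps2, so its counts may be split. Tpsb2, a mast cell tryptase, had 5, 3 and 1 fragments in B1N and 48, 34 and 18 in B2N, a ratio of 11.6 (counting interval 5.88 to 26.1, adjusted p = 0.00667, and 0.0506 without B1N replicate 2).

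**Figure D3:**
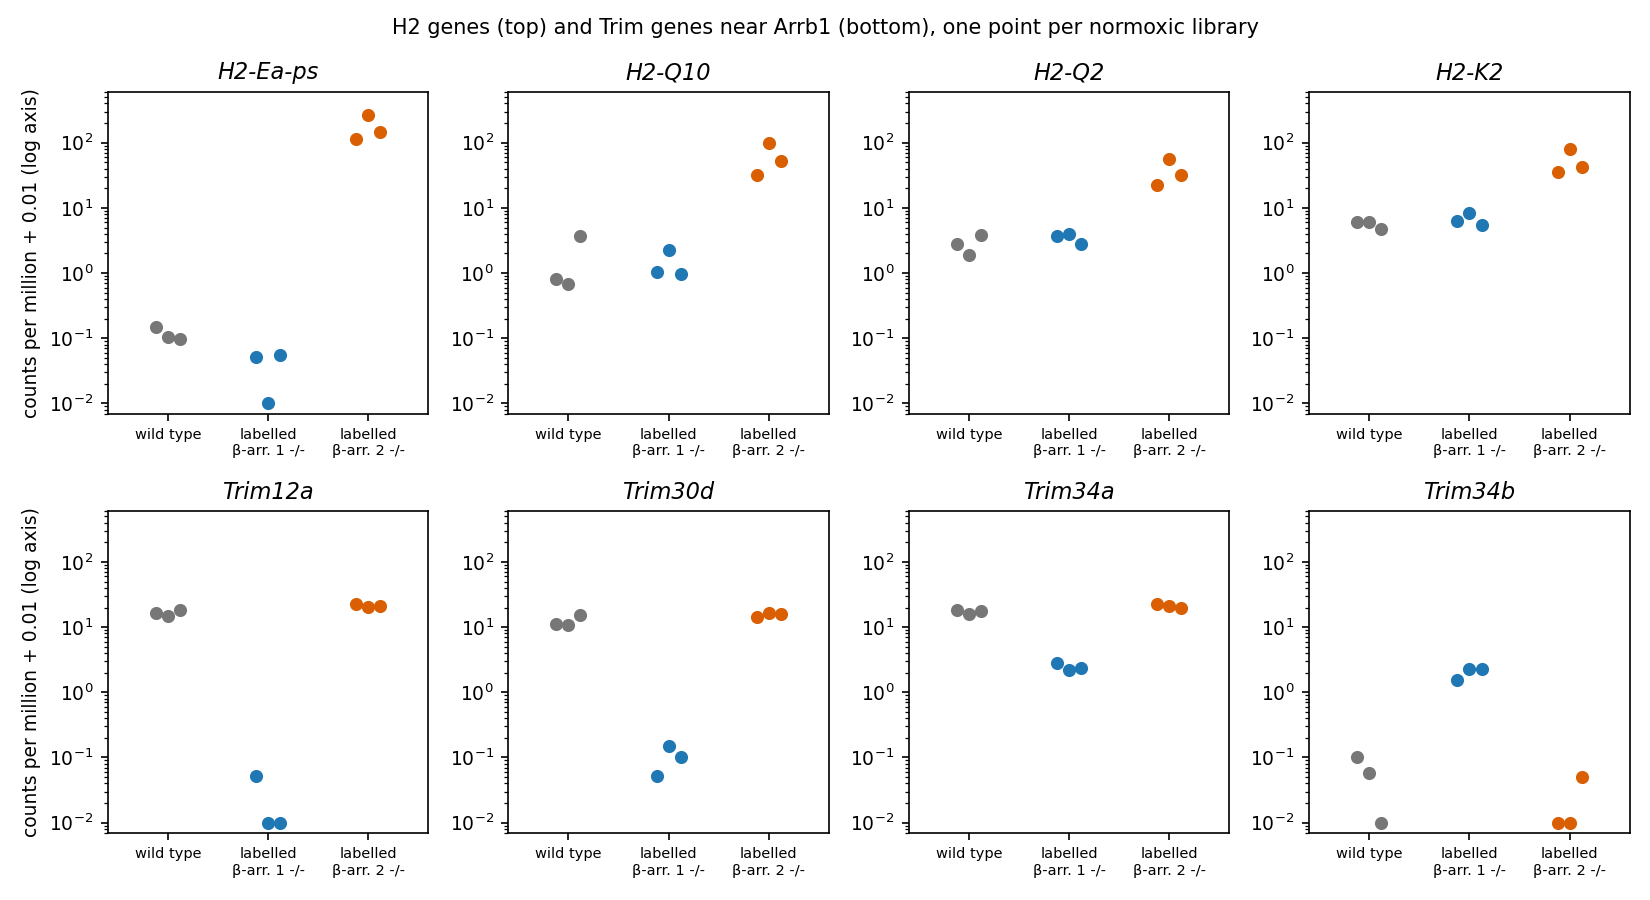
CPM plus 0.01 on a log axis for 4 H2 genes (top) and 4 Trim genes near Arrb1 (bottom), 1 point for each WTN, B1N and B2N library. The H2 genes are high in the B2N-labelled libraries alone among the 3 groups, whereas Trim12a, Trim30d and Trim34a are low, and Trim34b high, in the B1N libraries.

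Differences were also more frequent beside Arrb1 than over all genes. Within 10 Mb on either side, 8 of 151 genes tested differed (5.3%, against 1.72% over all genes), Arrb1 among them. Outside chromosome 17, stretches were counted only around the 2 arrestin genes. Trim12a (104299897 to 104324838), of the tripartite motif family of antiviral proteins, had 1, 0 and 0 fragments in B1N and 442, 473 and 526 in B2N, a ratio of 1510 (counting interval 270 to 59500). Trim30d had 1, 3 and 2 against 274, 382 and 397, a ratio of 183 (counting interval 84.0 to 501). Trim34a was at 2.81, 2.21 and 2.34 against 22.4, 21.4 and 20 CPM (3.11 ± 0.21, adjusted p = 3.38e-07). Its neighbour Trim34b went the other way, with 37, 49 and 51 fragments in B1N and 0, 0 and 1 in B2N, a B1N to B2N ratio of 131 (counting interval 23.1 to 5220). Wild type was on the side of the B2N-labelled libraries in all 4, at 16.5, 12.5, 17.4 and 0.047 CPM, so here the B1N libraries are those that stand apart. Trim12a, Trim30d, Trim34a and Trim34b are close relatives whose fragments may be split.

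Myo7a, an unconventional myosin of hair cells, stood at 5.28, 6.63 and 6.57 CPM in B1N and at 16.1, 19.2 and 18.4 in B2N (1.54 ± 0.12, adjusted p = 3.04e-06), with wild type at 21.0. Lrrc32 (GARP), which holds latent TGF-β on the cell surface, was lower in B2N (-0.65 ± 0.13, adjusted p = 0.0242) and lost its call without B1N replicate 0 or 2 or B2N replicate 0 or 1. Around Arrb2, 9 of 325 genes differed within 10 Mb (2.77%, against 1.72% over all genes). Xaf1, an interferon-induced binding partner of the apoptosis inhibitor XIAP, was at 19.5, 26.0 and 16.4 CPM in B1N and at 125, 110 and 122 in B2N (2.53 ± 0.22, adjusted p = 4.98e-06), with wild type at 20. The others with a call in all 6 leave-one-out fits were Tlcd2 (1.58 ± 0.24), the transcription factor Mnt (-0.67 ± 0.09) and Kctd11 (-0.74 ± 0.10), an adaptor of ubiquitin ligases.

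Outside these stretches, 2 genes of the endothelial surface were among the largest falls in the B2N-labelled libraries. Cd300lg (nepmucin), an endothelial receptor known to bind lymphocytes, was at 24.4, 30.7 and 29.1 CPM in B1N and at 5.86, 3.59 and 2.64 in B2N (-2.81 ± 0.23, adjusted p = 3.04e-06), with wild type at 27.7. Sele, the E-selectin that slows leukocytes on activated endothelium, was at 4.95, 3.55 and 4.63 against 0.719, 1.13 and 0.680 CPM (-2.37 ± 0.37, adjusted p = 0.00367). For Sele the wild type level of 0.858 was near that of B2N, and B1N stood apart. Of 37 endothelial genes 3 were lower (Sele, Tbx3 and Pecam1) and 0 higher, against 1.11% lower over all genes, with a median of -0.19 against 0.006. The number lower was 1 to 3 when a library was left out, 1 with a tissue score (the mean level of cardiac muscle, secretory airway and adipocyte genes in each library) as a covariate, and 7 in the fit of 6 libraries (4.75% over all genes). Pecam1, the adhesion molecule of all endothelium, was at 1140, 1300 and 1310 CPM in B1N and 861, 884 and 997 in B2N (-0.45 ± 0.11, adjusted p = 0.050). Cdh5 (-0.52 ± 0.19), Kdr (-0.21 ± 0.22), Tie1 (0.00 ± 0.09) and Tek (-0.01 ± 0.13) did not pass. Of the 37 differences 30 lay below 0. Without overlap between the groups, 16 genes were lower and 3 higher (against 37.9% of all genes in either direction). In whole lung, fewer cells of a type and less RNA per cell cannot be told apart. The protocadherins Pcdhgb8 (-2.29 ± 0.28) and Pcdhb11 (-1.51 ± 0.26), which mediate homophilic adhesion, were lower too, but share 1 merged locus with 60 other features. Their wild type means, 1.96 and 2.53 CPM, were nearer to those of B2N (2.81 and 1.85) than of B1N (13.7 and 5.3). Pcdhb11 lost its call without B2N replicate 1 (edgeR adjusted p = 0.0505).

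Zbtb16 (PLZF), a zinc finger repressor induced by glucocorticoids, had a large difference that did not hold in every fit. It was at 203, 296 and 258 CPM in B1N, near the wild type mean of 320, and at 29.2, 18.7 and 41.7 in B2N (-3.08 ± 0.67, adjusted p = 0.0330). The groups lay far apart, yet the call was lost without any one of the 6 libraries (adjusted p up to 0.147), and the spread that enters the test is that of all 18. Rec8, a cohesin subunit of meiosis, was higher, at 2.31, 2.58 and 4.63 against 18.9, 17.6 and 14.1 CPM (2.41 ± 0.30, adjusted p = 0.000443), a call that held in all 6 leave-one-out fits.

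Some chaperones of the cytosol (5 of 21 genes of a heat shock list) and some ER stress genes (3 of 25, of the endoplasmic reticulum) were lower in the B2N-labelled libraries, counts that fell to 0 or 1 and to 0 to 2 when a library was left out. Cells make cytosolic chaperones under the control of heat shock factors when proteins unfold, and ER chaperones through the ATF6 and XBP1 branches of the unfolded protein response. Of the sterol and fatty acid synthesis genes, of which the sterol enzymes follow the SREBP2 factor, 6 of 30 were higher. For each list the promoter shown is that of the called member which held the element known for its factor, chosen for that match; the sequences are from RefSeq, GRCm38.p6, plus strand, cover the 250 bases before the start site, and have the matched letters in capitals.
Hspb1 (chr5:135887669-135887918): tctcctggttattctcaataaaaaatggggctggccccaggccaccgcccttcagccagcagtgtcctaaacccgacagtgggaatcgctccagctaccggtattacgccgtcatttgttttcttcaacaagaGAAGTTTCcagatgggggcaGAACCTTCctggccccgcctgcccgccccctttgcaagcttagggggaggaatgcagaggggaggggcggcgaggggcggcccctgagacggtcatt
Hspa5 (chr2:34771840-34772089): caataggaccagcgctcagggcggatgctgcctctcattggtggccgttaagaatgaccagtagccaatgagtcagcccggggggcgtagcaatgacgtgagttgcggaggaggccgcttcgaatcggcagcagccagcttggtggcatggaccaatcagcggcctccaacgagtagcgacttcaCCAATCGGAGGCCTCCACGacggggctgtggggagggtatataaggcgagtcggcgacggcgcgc
Hmgcs1 (chr13:119690101-119690350): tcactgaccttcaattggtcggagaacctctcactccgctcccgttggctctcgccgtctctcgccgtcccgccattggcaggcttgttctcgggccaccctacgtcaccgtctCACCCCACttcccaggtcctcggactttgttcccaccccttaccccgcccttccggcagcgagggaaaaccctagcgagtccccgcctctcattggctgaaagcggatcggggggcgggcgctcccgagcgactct
The heat shock pair was searched as GAANNTTC or TTCNNGAA on both strands in the 300 bases around each start. Hspb1 held 2, from bases -117 and -97 relative to the start site. This motif is short: 15.1% of 32851 promoters held it, and 11 of 21 promoters of the heat shock list did. The ER stress element, searched as CCAAT and CCACG with 9 bases of any kind between them, or CGTGG and ATTGG spaced alike for the other strand, stood at -65 in Hspa5, in 8 of 22 promoters of the ER stress list and in 0.119% of all. The sterol element, CACCCCAC or GTGGGGTG, stood at -136 in Hmgcs1, in 1 of 25 promoters of the sterol list and in 2.87% of all. Among called members with a promoter entry, the matches were in Hspb1 but not Ahsa1 or Stip1, in Hspa5 but not Sdf2l1 or Asns, and in Hmgcs1 but not Cyp51 or Dhcr7. A match is a description of the letters, not a bound site.

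Of 21 heat shock genes 5 were lower and 0 higher (against 1.11% lower over all genes), with a list median of -0.67, and 19 of the 21 differences lay below 0. Hsp90aa1, the inducible HSP90, was at 203, 150 and 149 CPM in B1N and 94.3, 73.9 and 77.6 in B2N (-1.03 ± 0.22, adjusted p = 0.0321). Its constitutive partner Hsp90ab1 was at 3140, 2840 and 2760 against 1760, 1540 and 1640 CPM (-0.83 ± 0.15, adjusted p = 0.0128). The small chaperone Hspb1 was at 121, 115 and 95.3 against 62.9, 38.2 and 52.3 CPM (-1.11 ± 0.26, adjusted p = 0.0430). In all 3 the lowest B1N library was above the highest B2N-labelled one, and wild type (114, 2080 and 67.6 CPM) lay between the group means. The HSP90 co-chaperones Stip1 (-1.0 ± 0.22) and Ahsa1 (-0.67 ± 0.15) were lower as well. The HSP70 genes Hspa8 (-1.06 ± 0.30, adjusted p = 0.0831) and Hspa1b (-2.06 ± 0.94, adjusted p = 0.232), named after their values were seen, did not pass. B1N replicate 0 had the highest mean over the list, 0.66 log2 units above the average of the 6 libraries against 0.19 and 0.16 in its fellows, and without it 0 genes of the list passed. Without any one of the other libraries it was 0 or 1, and with the tissue score as a covariate 3. In the fit of 6 libraries it was 9 (against 4.75% lower over all genes), and with replicate number as a block 7 (151 lower over all genes).

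Of 25 ER stress genes 3 were lower and 0 higher (against 1.11% lower over all genes), with a median of -0.36, and 24 of the 25 differences lay below 0. Hspa5 (BiP), the main HSP70 of the ER, was at 1330, 1200 and 1280 CPM in B1N and 782, 681 and 790 in B2N (-0.76 ± 0.18, adjusted p = 0.0419). Sdf2l1, a partner of BiP, was at 44.2, 48.8 and 50.6 against 27.2, 25.8 and 33.4 CPM (-0.73 ± 0.15, adjusted p = 0.0227). Asns, the asparagine synthetase that ATF4 induces, was at 39.2, 39.5 and 42.9 against 26.3, 23.6 and 29.6 CPM (-0.61 ± 0.13, adjusted p = 0.0239). For Sdf2l1 the wild type mean of 29.7 CPM was near that of B2N (28.8), and B1N (47.9) stood apart. For Hspa5 (899 CPM) and Asns (33.6 CPM) wild type lay between the group means. The groups did not overlap in 21 of the 25, all lower in B2N, against 37.9% of all genes in either direction. The number lower was 12 in the fit of 6 libraries (4.75% over all genes) and 0 to 2 when a library was left out. With replicate number as a block it was 6 (151 lower over all genes). Atf4 itself was at 336 and 347 CPM (0.05 ± 0.21).

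Of 30 sterol and fatty acid synthesis genes 6 were higher and 0 lower (against 0.618% higher over all genes), with a median of 0.26. The 6 all belong to cholesterol synthesis. Cyp51, the lanosterol demethylase, was at 45.0, 33.4 and 38.1 CPM in B1N and 55.3, 85.1 and 75.2 in B2N (0.89 ± 0.15, adjusted p = 0.00490), and passed in all 6 leave-one-out fits. Hmgcs1, which makes HMG-CoA, was at 104, 104 and 96.0 against 122, 185 and 165 CPM (0.63 ± 0.14, adjusted p = 0.0346). Sc4mol (0.73 ± 0.13), the squalene synthase gene Fdft1 (0.63 ± 0.12), Dhcr7 (0.61 ± 0.15) and Sqle (0.51 ± 0.12) were the others. In Cyp51 and Hmgcs1 B2N replicate 0 was the lowest of its group, and over the list its mean was 0.21 log2 units below the average of the 6 libraries, against 0.30 and 0.28 above in its fellows. Without that library 7 genes of the list passed, and without B1N replicate 2 or B2N replicate 1 it was 1. With replicate number as a block it was 5. The fatty acid synthase gene Fasn did not pass (-0.12 ± 0.22).

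**Figure D4:**
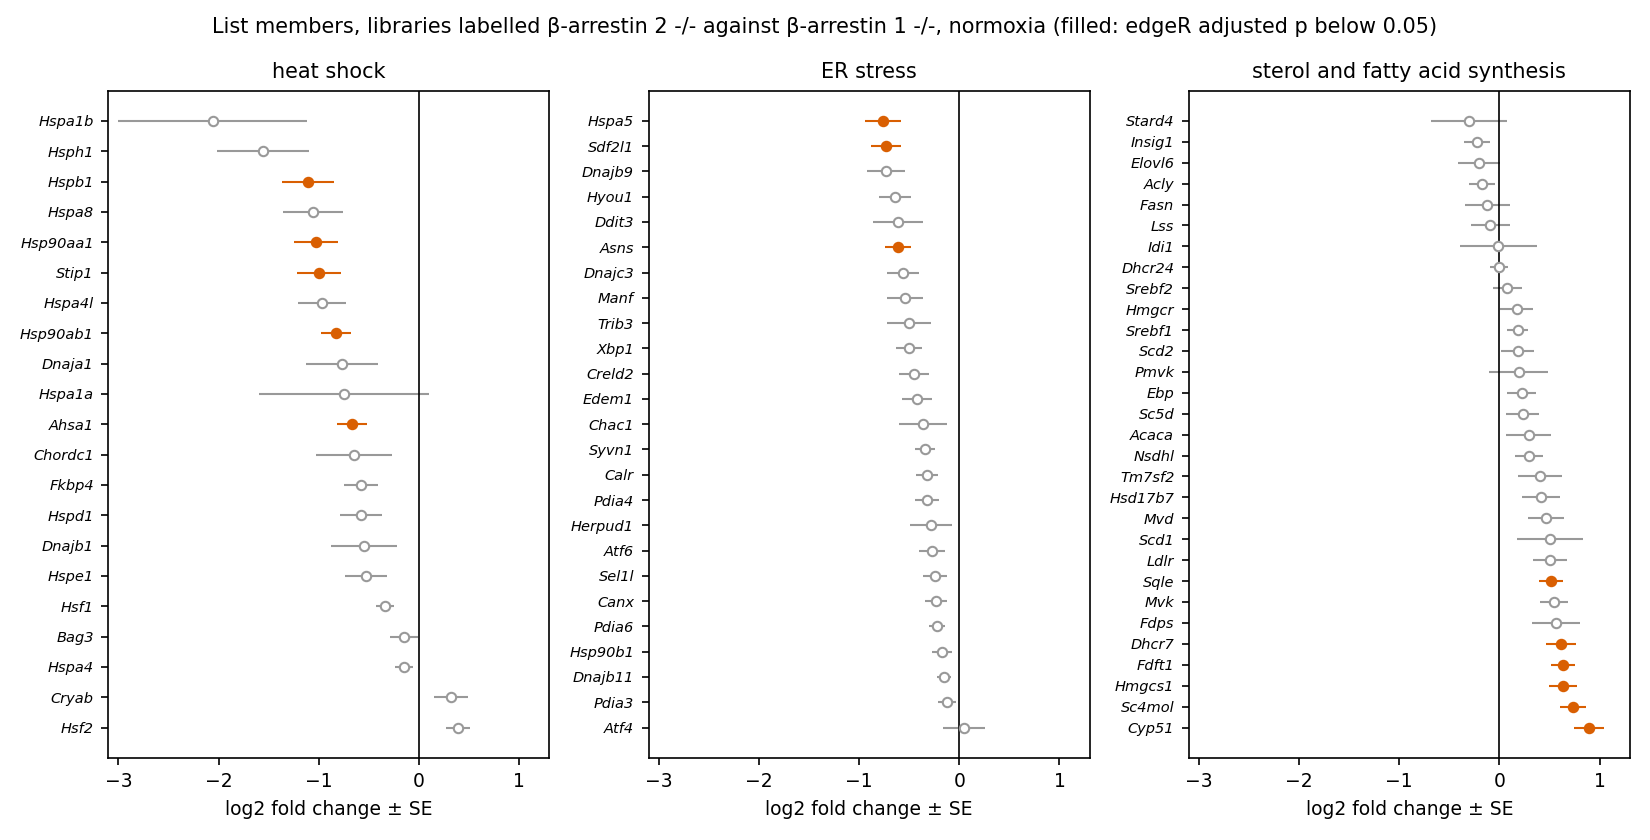
Log2 fold change ± SE of every tested member of 3 gene lists, B2N-labelled against B1N libraries in normoxia, with members at an edgeR adjusted p below 0.05 filled. In the heat shock list 19 of 21 points and in the ER stress list 24 of 25 lie left of 0, and 22 of 30 sterol and fatty acid genes lie right of it.

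Signalling pathways of the vessel wall had few calls. In the BMP and TGF-β list 2 of 54 genes were lower and 0 higher (against 1.11% lower over all genes), with a median of -0.15. Both are inhibitory SMADs, which these pathways induce and which damp them: Smad6 at 422, 377 and 484 CPM in B1N against 211, 251 and 275 in B2N (-0.80 ± 0.15, adjusted p = 0.0171), and Smad7 at 225, 213 and 243 against 112, 128 and 154 (-0.79 ± 0.18, adjusted p = 0.0392). The wild type means, 404 and 226 CPM, were near those of B1N. The count of 2 was 0 without B1N replicate 2, B2N replicate 0 or B2N replicate 1, 4 without B2N replicate 2, 1 without B1N replicate 0 or 1, and 7 in the fit of 6 libraries (4.75% over all genes). The Notch ligand Jag2 (-1.05 ± 0.21), the Wnt antagonist Nkd1 (-0.42 ± 0.10) and the collagen prolyl hydroxylase P4ha1 (-0.88 ± 0.17) were the members of the Notch, Wnt and hypoxia-glycolysis lists to pass. They were 1 of 19, 1 of 40 and 1 of 39 genes (against 1.11% lower over all genes), each with 2 of 6 calls kept when a library was left out. Of 29 collagen genes 0 passed by edgeR (9 at an unadjusted p below 0.05, 1 by DESeq2 and 1 in the fit of 6 libraries), and 21 of the 29 differences lay above 0.

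Immune lists other than that of MHC class I held 1 to 3 calls each or none. In the interferon-stimulated list 3 of 45 were higher (against 0.618% over all genes): Xaf1, the deconjugase Usp18 (0.50 ± 0.12) and Ifi27l2a, at 15.5, 18.3 and 10.7 CPM against 80.2, 39.4 and 52.5 (1.95 ± 0.38, adjusted p = 0.0176). The list median was 0.26, and 1 to 3 passed when a library was left out. Of 7 mast cell genes the 2 proteases Tpsb2 and Cma1 were higher (against 0.618% over all genes), and 0 to 2 passed when a library was left out. Cma1 had 17 fragments in all of B1N and 110 in B2N (ratio 6.76, counting interval 4.04 to 12.0) and kept 2 of 6 calls. The means of Tpsb2 and Cma1 were below 2 CPM, and other mast cell genes did not pass: Cpa3 at 1.09 and 1.83 CPM, and Mcpt4 at 1.73 and 0.844. The endotoxin coreceptor Cd14 (0.83 ± 0.18) and the actin bundler of dendritic cells Fscn1 (1.03 ± 0.21) were higher, and the T cell factor Tcf7 (-0.76 ± 0.15) lower, each with 2 of 6 calls kept. They were 1 of 27 macrophage and monocyte genes, 1 of 29 class II and dendritic cell genes and 1 of 36 T and NK cell genes. Over all genes 0.618% were higher and 1.11% lower.

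The same pair of lines in hypoxia gave a set of libraries that the normoxia comparison did not use, although both were fitted together. There 570 genes differed (3.71%), 257 higher (1.67%) and 313 lower (2.03%), and 52 of the 265 normoxia genes (19.6% of them, and 9.12% of the hypoxia genes) differed the same way, 30 higher and 22 lower. Of these 52, 39 lay on chromosomes 7, 11 and 17, with 6, 8 and 25 on each. These chromosomes hold 1184, 1276 and 765 of the 15384 genes tested, and 20, 26 and 44 of the 265. The 52 include H2-Ea-ps (0.184, 0 and 0 CPM in B1H, 229, 252 and 226 in B2H), Atp6v0c (-2.38 in hypoxia), Trim34a (3.01), Xaf1 (2.09) and Cd300lg (-1.56). Hspb1 (-0.96) and Sdf2l1 (-0.88) are the heat shock and ER stress genes among them. In hypoxia the ER stress list had 6 genes lower (against 2.03% over all genes) and a median of -0.28, and the heat shock list 1 lower and a median of -0.21, with 0 interactions that passed in either list. The sterol list had 0 genes passing in hypoxia, with a median of 0.00, and 2 interactions. Another 7 of the 265 differed the opposite way.

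The difference between the exposures was tested as an interaction, the line difference in normoxia minus that in hypoxia, and 389 genes passed (2.53%). Of the 265, 77 were among them, 57 lower and 20 higher in the B2N-labelled libraries. Zbtb16 had the largest fall: it was lower in B2N than B1N and stood at 72.6, 27.1 and 25.5 CPM in B1H and 221, 172 and 185 in B2H (interaction -5.28, adjusted p = 0.0147). Rec8 had a difference of 0.01 in hypoxia (interaction 2.40, adjusted p = 0.0147). The count of 389 is unstable, with 19 without B1N replicate 1 and 2140 without B1H replicate 0.

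**Figure D5:**
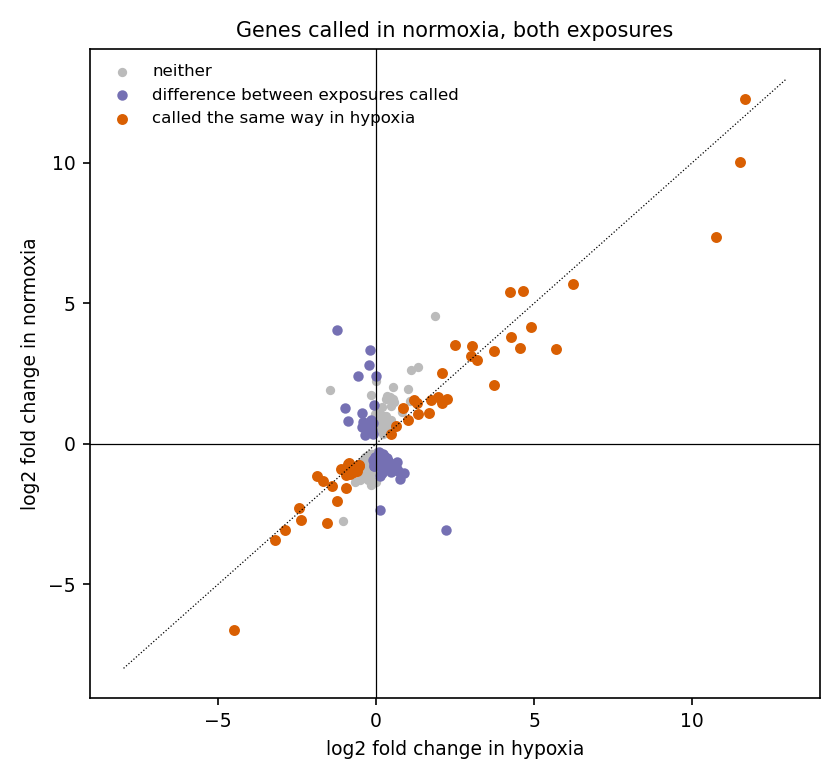
Log2 fold change, B2-labelled against B1 libraries, in hypoxia (x axis) and normoxia (y axis) for the 265 genes called in normoxia, with a dotted line of equality. The 52 genes called the same way in hypoxia (orange) lie along that line over the whole range, while genes whose interaction passed (purple, unless also orange) lie near 0 or on the other side in hypoxia.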

How the data were processed

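RNA of 18 lung libraries was sequenced. Reads went through FastQC, TopHat and Cuffdiff with the build mm10, as the submitters' processing notes list them; for versions, annotation and fragments that match several genes, the sources used here give nothing. The kit named in the labels does not mark strand. The authors deposited raw estimated counts (93.3% whole numbers), FPKM (scaled between libraries) and pairwise Cuffdiff comparisons, whose q-value and the sign of its test score were used; in the authors' deposited comparisons, 1203 of the genes tested here differed between B1N and B2N, 200 of the 265 genes called here among them in the same direction.

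Of 23356 features, 5 marked HIDATA and 4 that share 2 names were dropped, and 20 marked FAIL stayed in. Estimated counts were rounded and fitted with edgeR 4.0.16 (R 4.3.3): TMM, filterByExpr (15384 genes kept), 6 group means over 18 libraries in 1 fit, quasi-likelihood F-tests, Benjamini-Hochberg adjustment, threshold 0.05. Adjusted p-values come from that test. Wild type and hypoxia libraries thus share in the estimate of spread. CPM are TMM-scaled. On simulated counts for B2N against B1N (15384 genes), the edgeR test found 19.4% of 1.5-fold, 64.2% of 2-fold and 89.4% of 4-fold changes with 2.54% of its calls false, against 12.5% false for DESeq2 1.42.0. With limma it was 21.9%, 68.2% and 93.5% of the genes it kept, with 1.68% false. The simulation gave each gene 1 spread in all groups. Its error rates may thus not hold where spread differs between groups or 1 library stands apart, as B2N replicate 0 did. Alternatives were DESeq2, its size factors, no filter, limma 3.58.1 on log2 FPKM with a pseudocount of 1 or 0.1 (FPKM of at least 1 in 3 libraries, or no filter), only the groups compared, a replicate block, a tissue score as covariate, and each library left out.

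The comparison, the 46 gene lists, the fits and the naming rule were chosen with earlier results of these data known. The rule names both arrestins; the 8 called genes furthest up and the 8 furthest down in log2, given a mean log2 CPM of 1 or more, groups without overlap and a proper gene name; up to 4 called members of each list; up to 8 called genes within 10 Mb of each arrestin gene; the 8 smallest p also called in hypoxia; and the 6 largest interactions. Not all are shown. Members of a list or of the H2 family that did not pass, and the called list members Ahsa1, Dhcr7, Sqle and H2-T24, were named after their values were seen. Coordinates are the deposited ones plus 1. A list's mean is that of its members' log2 CPM less its average over the 6 libraries. Counting intervals are exact (95%). Some genes picked by the naming rule or the lists are not reported here.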

Additional observations from a re-analysis of the deposited data

Results flagged for a closer look

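Each gene here had a line difference in normoxia that departed from the one in hypoxia by an edgeR interaction test at an adjusted p below 0.05, and the values are the log2 difference in normoxia minus that in hypoxia. They are among 389 such genes. Among genes lower in the B2N-labelled libraries in normoxia, the interaction was -5.28 for Zbtb16, -2.49 for Sele, -1.30 for Lrrc32, -1.25 for Cd300lg, -1.23 for Jag2, -0.95 for both Smad6 and Cpt1a, -0.91 for Tcf7, -0.88 for Mnt and -0.61 for Nkd1. Lrrc32 differed the opposite way in hypoxia (0.65, adjusted p = 0.0133). Among higher genes it was 2.40 for Rec8, 0.84 for Sc4mol and 0.82 for Hmgcs1.

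Alox15, the lipoxygenase gene beside Arrb2, had an interaction of 5.30. It was at 0.330, 0.276 and 0.360 CPM in B1N and at 3.75, 1.99 and 10.5 in B2N, and in hypoxia at 14.1, 1.83 and 0.802 in B1H and at 3.85, 1.57 and 1.66 in B2H, where the groups overlap. Rps18, a ribosomal protein gene inside the H2 complex with many processed copies, had the largest interaction, 7.55. Its B2N-labelled libraries were at 15.7, 0.130 and 13.6 CPM, those of B2H at 0.0875, 0.0784 and 0.0437, and B1N at 19.2, 19.6 and 17.6. One normoxic library was thus at the level of the 3 hypoxic ones of its label. Prg4 (4.53), Spon2 (4.21) and Sprr1a (3.94) passed the interaction without a call in normoxia. No cause was tested for any of these.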

How the results depend on the processing

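Against 265 genes (95 higher, 170 lower), DESeq2 called 912 (343 and 569), the fit of the groups compared alone 1228 (497 and 731) and the fit without a filter on low counts 109 lower ones. Leaving out 1 library gave 63 to 250 genes, 32 to 89 higher and 27 to 161 lower. For the lines in hypoxia (570), it was 1091 with DESeq2, 67 with the groups compared alone, 303 with the tissue score, and 247 to 838 without 1 library. For the interaction (389), it was 1606, 244 with the groups compared alone, and 19 to 2140. Apart from fewer or more libraries in a fit, the causes were not tested. Of 67 genes picked by the naming rule, 0 values changed sign under any alternative. Genes named outside that rule were not part of this check. Calls of the 67 genes were lost in 154 of 402 leave-one-out values, in 7 with the replicate block and in 6 with the tissue score.

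With a replicate block the counts were 234 in normoxia, 579 in hypoxia and 325 for the interaction, and 205 of the 265 genes kept their call. The numbers were not taken to pair the libraries: deviations of same-numbered B1N and B2N libraries correlated at 0.367, -0.035 and 0.471, and B1N replicate 1 did not correlate best with its own number. Pairs of unlike number ran from -0.433 to 0.091. The tissue score fell from replicate 0 to 2 in B1N (0.728, 0.105 and -0.547) and in B2N (1.68, 0.128 and -0.541). Whether same-numbered libraries were handled together was not tested. Depth limits genes with a few fragments per library, such as Tpsb2 and Trim34b.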

Other observations

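Some pathway and cell lists held no gene that passed by edgeR. Among 43 cell cycle genes 40 differences lay above 0, with a median of 0.44, 15 at an unadjusted p below 0.05, 2 calls by DESeq2 and 7 in the fit of 6 libraries. Among 37 genes of respiratory complex I it was 36, with a median of 0.38 and 9, 1 and 3 such genes. Of 35 cilia genes 30 lay above 0 (median 0.24; 6, 1 and 1 such genes), and of 15 alveolar fibroblast genes 13 lay below 0 (median -0.26; 5, 5 and 3). Over all genes, 3116 of 15384 had an unadjusted p below 0.05. DESeq2 called 912 of 15378 and the fit of 6 libraries 1228 of 15384 (7.98%). B2N replicate 0 had the highest mean of the 6 libraries over the complex I and cilia lists (0.36 and 0.49 log2 units above their average) and the lowest over the alveolar fibroblast list (0.43 below), and its part in these differences was not tested. Over the complex I list the other B2N-labelled libraries, at 0.02 and 0.04, also lay above the B1N libraries, at -0.09, -0.12 and -0.22, and 28 of its 37 genes were higher without overlap between the groups (against 37.9% of all genes in either direction).

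Of 17 core clock and 17 clock output genes 0 passed by edgeR in normoxia (1 and 4 at an unadjusted p below 0.05, 0 and 1 by DESeq2, with the counts over all genes given above). The fit of 6 libraries called 3 core clock genes lower, and 4 clock output genes lower and 1 higher (against 4.75% lower and 3.23% higher over all genes). In hypoxia 3 and 8 were higher in the libraries labelled β-arrestin 2 -/- (against 1.67% over all genes), and 1 and 2 had an interaction that passed (against 2.53% over all genes), each with the line difference lower in normoxia. The glucocorticoid and fasting list had 2 of 28 genes lower in normoxia (Zbtb16 and Cpt1a, against 1.11% over all genes), 7 higher and 1 lower in hypoxia (against 1.67% and 2.03%), and 8 interactions that passed (against 2.53%). These lists follow the time of day and feeding, which the labels do not give.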
